A study of Homo sapiens with 4 samples.

Results

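H3K9la regions far from genes were taken from the peak lists of the 2 arms, named sg3 and V2, of a ChIP-seq series in KYSE30 cells, an established line from an oesophageal squamous cell carcinoma. H3K9la is histone H3 with a lactyl group on lysine 9. A region was a member when it lay on chromosomes 1 to 22 or X, was narrower than 5000 bases and had its summit more than 100 kb from every RefSeq protein-coding gene. V2 regions that overlapped no sg3 region were left out. This gave 6948 members of 97207 regions in all, of which 4450 were from the sg3 list of 56875 regions and 2498 from the V2 list of 40332 regions. That is 7.82% of the sg3 list (exact Clopper-Pearson 95% CI 7.60 to 8.05%) and 6.19% of the V2 list (95% CI 5.96 to 6.43%). A further 46 sg3 and 8 V2 regions this far from genes were too wide, and 540 V2 regions overlapped no sg3 region. The members were chosen by position, width and, in V2, overlap, so these properties are description and not findings.

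Each arm had 1 anti-H3K9la ChIP library and 1 input library made from formaldehyde-fixed, sonicated chromatin of this line. The sources used here do not say what sg3 and V2 mean, so they are kept as names. The series title names SIRT3, a sirtuin, as an eraser of the mark. With 1 library per arm there is no replicate check and no test of the arms, and intervals cover counting error only. Read depth is not given in the lists. Fold enrichment (or fold), the ratio of ChIP pileup to background at a summit, and -log10 q, the strength of evidence for a region, are the authors' values. They rank regions within their own list, and a larger fold in one arm than in the other is no measured difference.

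A gene desert is a long stretch of genome without protein-coding genes. Deserts beside genes for developmental and growth-regulating factors often hold clusters of enhancers that act on a gene far away, and many deserts also carry genes for long non-coding RNAs. Lysine lactylation adds a lactate-derived group to histone tails and, like acetylation of the same residue, is found at active promoters and enhancers. A distance to a flanking gene says nothing about which gene a region acts on.

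A few sequences are printed from non-coding starts where a member overlapped the window. Most desert regions lie at no annotated start, so these do not show the DNA of members in general. The windows below run from 250 bases before to 50 bases after the start of a non-coding RNA gene, from RefSeq on GRCh38.p14, and capitals mark each CpG. The start of the lncRNA gene LOC105374286, on the plus strand at chr3:193874533-193874832 between OPA1 and LOC102724877, lies in the member with the highest -log10 q in V2 but one. The window of the lncRNA gene LINC01132, on the plus strand at chr1:234723792-234724091 between IRF2BP2 and TOMM20, overlaps the end of a broad sg3 member. The start itself lies just past that end. Both windows hold 4 CpG, and they are the ones with the strongest sg3 members in the 10 deserts described first. MIR550A3HG, a miRNA host gene on the minus strand at chr7:29685089-29685388 between PRR15 and WIPF3, has the window with most CpG, 42, among desert starts overlapped by members of both lists.
LOC105374286: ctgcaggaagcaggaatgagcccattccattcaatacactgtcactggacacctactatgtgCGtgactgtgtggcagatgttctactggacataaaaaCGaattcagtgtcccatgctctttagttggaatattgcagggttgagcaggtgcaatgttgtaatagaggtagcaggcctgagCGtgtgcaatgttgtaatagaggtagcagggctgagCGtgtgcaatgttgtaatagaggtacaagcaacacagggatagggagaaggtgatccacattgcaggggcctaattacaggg
LINC01132: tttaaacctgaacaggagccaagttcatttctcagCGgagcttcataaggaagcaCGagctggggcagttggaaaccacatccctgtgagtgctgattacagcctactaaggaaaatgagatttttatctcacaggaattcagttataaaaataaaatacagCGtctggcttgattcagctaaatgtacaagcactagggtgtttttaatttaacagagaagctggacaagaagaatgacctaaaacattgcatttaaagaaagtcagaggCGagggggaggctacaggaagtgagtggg
MIR550A3HG: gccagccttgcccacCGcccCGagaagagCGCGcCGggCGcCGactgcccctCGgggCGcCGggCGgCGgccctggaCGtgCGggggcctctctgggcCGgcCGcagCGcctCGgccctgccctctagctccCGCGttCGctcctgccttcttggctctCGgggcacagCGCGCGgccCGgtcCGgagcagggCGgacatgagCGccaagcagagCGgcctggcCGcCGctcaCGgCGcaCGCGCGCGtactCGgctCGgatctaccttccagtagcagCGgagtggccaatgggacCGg
Over LOC105374286 the sg3 member had a fold of 12.6 at a -log10 q of 163, and the V2 member had a fold of 15.5 at a -log10 q of 159. Over LINC01132 these were 15.4 and 114 in sg3 and 12.1 and 51.8 in V2. Over the CpG-rich window of MIR550A3HG they were 3.80 and 27.2 in sg3 and 3.61 and 23.3 in V2. A fold belongs to the summit of its member. At LOC105374286 and LINC01132 the summits lay outside the printed windows, 1811 and 849 bases from the start in sg3. In V2 the distances were 1798 and 796 bases. The first 2 windows were taken for the strength of their members and the last for its CpG, so no relation of CpG and strength can be read from them.

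The mature products of MIR205 belong to another marked stretch and were picked after their values had been seen. miR-205 is a microRNA abundant in squamous and other stratified epithelia. Its sequences, from RefSeq on GRCh38.p14, lie on the plus strand at chr1:209432166-209432187 and chr1:209432203-209432223, with the seed, bases 2 to 8, in capitals.
hsa-miR-205-5p: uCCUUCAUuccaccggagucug
hsa-miR-205-3p: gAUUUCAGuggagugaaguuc
The 2 mature strands have different seeds. Around this hairpin, within 5 kb, lay 3 sg3 members with fold enrichments of 5.82, 9.26 and 4.01, and 4 V2 members with fold enrichments of 5.31, 4.85, 3.15 and 7.93. Of the 185 miRNA genes in desert sequence, 17 had an sg3 member within 5 kb and 7 had a V2 member. MIR205 had the most V2 members of these genes, and MIR587, between QRSL1 and CD24, had 3 sg3 members within 5 kb and no V2 member.

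Desert sequence carried far fewer regions than the rest of the genome. Sequence more than 100 kb from protein-coding genes amounts to 956 Mb, or 31.6% of the chromosomes used. Assembly gaps and centromeres were not taken out of it, and their part in the densities was not tested. Desert sequence counted in this way held 4.65 sg3 members per Mb, against 24.1 sg3 regions per Mb nearer to genes. In V2 these were 2.61 members and 17.4 regions per Mb, and the desert density was 3.18 per Mb when the 540 left-out regions were kept. Density kept falling with distance. In sg3 it was 38.2 per Mb at up to 10 kb outside a gene, 16.9 at 50 to 100 kb, 11.2 at 100 to 200 kb, 6.40 at 200 to 300 kb, 3.16 at 300 to 500 kb and 0.890 beyond 500 kb. The V2 densities at the same distances were 28.9, 12.4, 6.53, 3.58, 1.70 and 0.391 per Mb, where the last 4 count members only.

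**Figure D1:**
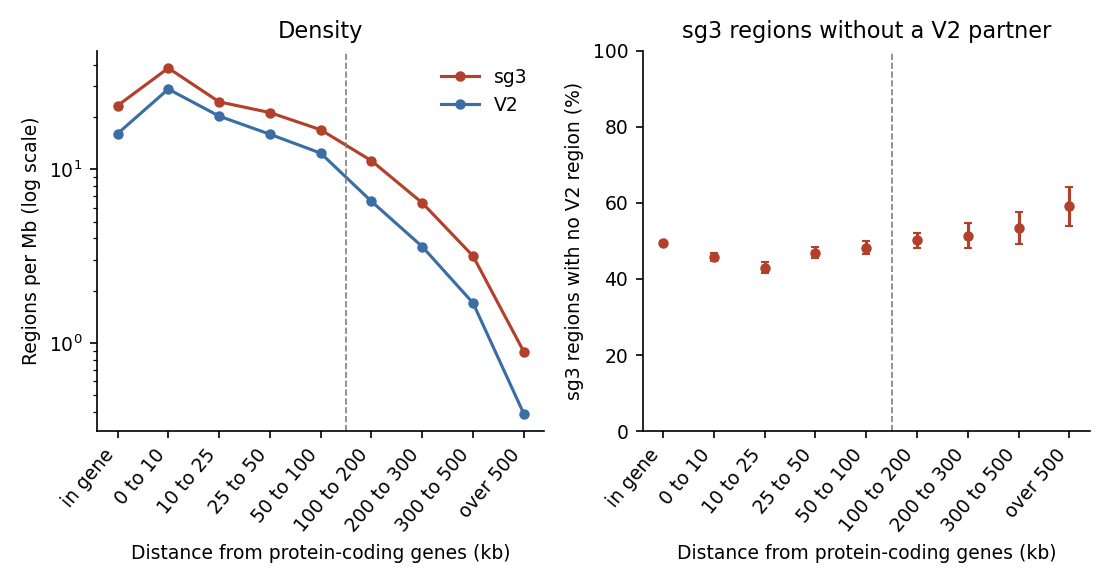
Left, regions per Mb of sequence (log scale) by distance of the summit from protein-coding genes in kb, for the sg3 list and the V2 list; right, the percent of sg3 regions overlapped by no V2 region, with exact 95% intervals. The dashed line marks 100 kb, beyond which V2 regions without an sg3 region are left out; sg3 density falls from 38.2 per Mb at up to 10 kb to 0.890 per Mb beyond 500 kb, and the share without a V2 region is 42.9% at 10 to 25 kb and 59.1% beyond 500 kb.

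Desert members differed little from other regions in strength and width. The median fold enrichment of sg3 members was 5.21 (95% CI 5.11 to 5.28, interquartile range 4.12 to 6.76), against 4.87 (4.85 to 4.89) for sg3 regions nearer to genes. Their median width was 579 bases, against 614 bases nearer to genes. Their median -log10 q was 11.4, against 13.0 nearer to genes. So sg3 members had a slightly higher median fold, a smaller width and a lower -log10 q than regions near genes. V2 members had a median fold enrichment of 5.93 (95% CI 5.79 to 6.004), a median width of 574 bases and a median -log10 q of 12.9. V2 regions nearer to genes had medians of 5.16, 561 bases and 12.6, without the condition of an overlap that the V2 members had to meet. The weakest members had a -log10 q of 2.02 in sg3 and 2.09 in V2.

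The rule cuts through a continuous range of distances and widths. The sg3 members nearest to the distance limit lay 100022 bases from EBF2 and 100048 bases from MAP3K7, with fold enrichments of 9.57 and 13.5. The nearest sg3 regions left out lay 99991 bases from PDC and 99984 bases from IGF1R, with fold enrichments of 6.45 and 3.76. The widest sg3 members had 4988 and 4946 bases and fold enrichments of 12.5 and 15.4. The narrowest left out had 5124 and 5215 bases and fold enrichments of 13.1 and 11.7. In V2 the same regions by MAP3K7 and EBF2 lay 100019 and 100042 bases from the gene. The nearest V2 regions outside the limit lay 99980 bases from DUSP10 and 99949 bases from SPATA31A6. The widest V2 members had 4763 and 4667 bases, and the narrowest too wide had 5080 bases.

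Many sg3 members had no counterpart in V2. No V2 region overlapped 2294 of the 4450 sg3 members, which is 51.6% (95% CI 50.1 to 53.0%), against 47.6% of all sg3 regions. In the other direction, 540 of the 3038 V2 regions of this position and width overlapped no sg3 region, which is 17.8% (95% CI 16.4 to 19.2%), against 13.7% of all V2 regions. With both lists cut to the same length by -log10 q, the sg3 share was 38.3%. At full length both shares stood a few percentage points above their list. The share of sg3 regions without a V2 region was 42.9% (95% CI 41.5 to 44.4%) at 10 to 25 kb from a gene and 48.3% at 50 to 100 kb. In the deserts it was 50.2% at 100 to 200 kb, 51.4% at 200 to 300 kb, 53.5% at 300 to 500 kb and 59.1% (95% CI 53.9 to 64.2%) beyond 500 kb. Inside genes it was 49.4% (95% CI 48.8 to 49.9%), so the deserts were not alone in a high share.

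Whether an sg3 member had a V2 region went with its strength. Members without one had a median fold enrichment of 4.77, a median -log10 q of 8.56 and a median width of 489 bases. Members with one had 5.96, 18.0 and 748 bases. Of sg3 members with a -log10 q under 5, 82.2% had no V2 region, and of those at 40 or more, 12 of 370 had none (3.24%, 95% CI 1.69 to 5.60%). At equal strength the desert share lay above that of regions 1 to 50 kb from a gene. At a -log10 q of 5 to 10 it was 74.0% in the deserts (95% CI 71.8 to 76.2%) and 67.0% at 1 to 50 kb (95% CI 65.7 to 68.4%), and inside genes it was 74.7%. At 20 to 40 it was 18.6% in the deserts (95% CI 15.8 to 21.6%), 14.9% at 1 to 50 kb (95% CI 13.5 to 16.3%) and 25.5% inside genes. The part of read depth in these shares was not tested.

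**Figure D2:**
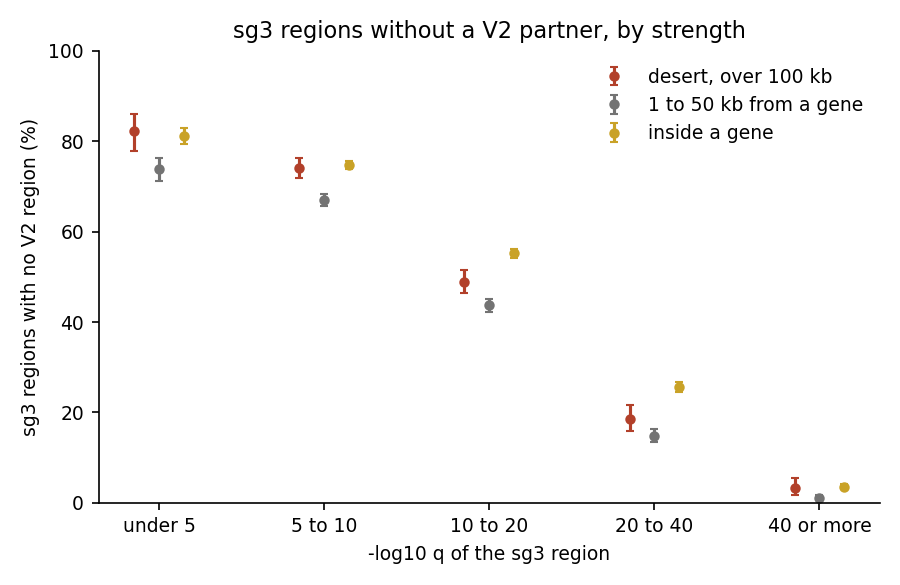
Percent of sg3 regions that no V2 region overlaps, by the authors' -log10 q of the sg3 region, for desert members, regions 1 to 50 kb outside a gene and regions inside a gene; bars are exact 95% intervals for counting error. The share in the deserts is 82.2% under 5 and 3.24% at 40 or more.

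The strongest sg3 members without a V2 region stood in 3 different deserts. The first lay at chr3:177358028-177359548, 157449 bases from TBL1XR1, a corepressor complex subunit, with a fold of 9.37 at a -log10 q of 60.2. The next lay at chr8:48318972-48319563, 254521 bases from UBE2V2, a ubiquitin-conjugating enzyme variant, with a fold of 11.4 at a -log10 q of 48.8. The last lay at chr6:2432012-2434917, 188281 bases from GMDS, an enzyme of GDP-fucose synthesis, with a fold of 15.8 at a -log10 q of 48.6. Each is weaker than the strongest shared members by -log10 q.

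Where both lists had a member, the summits lay close together. Of the sg3 members with a V2 region, 1889 formed pairs of 1 sg3 and 1 V2 region. The median distance between their summits was 50 bases, and in 76.4% of pairs it was at most 100 bases. The sg3 region was the wider in 73.8% of pairs, with a median width ratio of sg3 over V2 of 1.21. Pairs nearer to genes had a median summit distance of 44 bases and a median ratio of 1.22. The fold enrichments of the 1889 pairs agreed only loosely in rank, with a Spearman correlation across regions of 0.397, and of 0.475 for 22038 pairs nearer to genes. The regions of a pair share their position, and regions are not replicates. A single sg3 member overlapped up to 4 V2 regions, and 201 sg3 members overlapped 2 or more. Of the V2 members, 161 overlapped an sg3 region that was no member, in 160 cases because the sg3 region was too wide.

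The members were gathered in few deserts, and within a desert they stood close together. The genome has 1663 stretches more than 100 kb from protein-coding genes, and 573 of them held an sg3 member, 395 held a V2 member and 394 held both. There were 170 stretches with 1 sg3 member and 117 with 10 or more, and 1089 held no member of either list. The 10 stretches with most sg3 members held 891 sg3 members (20.02%) and 626 V2 members (25.1%) on 0.579% of the desert bases. The 30 with most held 1716 sg3 members (38.6%) and 1111 V2 members (44.5%) on 1.98% of the bases. The median spacing of neighbouring summits within a desert was 2.17 kb in sg3 and 2.29 kb in V2. For regions nearer to genes it was 2.53 kb and 2.59 kb. The latter was taken along whole chromosomes, across deserts too, so these measures are unlike. When members up to 12.5 kb apart were joined, 38.1% of sg3 members and 38.4% of V2 members lay in runs of 10 or more, and 12.8% and 13.7% stood alone.

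Per Mb, large deserts were the emptiest, with assembly gaps and centromeres counted in their bases. Stretches with a core of up to 100 kb held 17.5 sg3 members and 11.5 V2 members per Mb. Those of 300 to 1000 kb held 7.52 and 4.28 per Mb, and those over 2000 kb held 0.603 sg3 and 0.292 V2 members per Mb. Of the stretches over 2000 kb 57.0% held at least 1 sg3 member, against 18.1% of those up to 100 kb. Among chromosomes, desert density in sg3 was highest on chromosomes 8 and 20, at 10.8 and 10.2 per Mb. It was lowest on chromosome 19, with 3 sg3 members and no V2 member in 6.33 Mb. The largest stretches between 2 genes with no member were those between LINC02798 and H3-7 on chromosome 1 and between LOC124903767 and SHCBP1 on chromosome 16, which span the centromeres and their repeats.

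The desert with most members separates KLF5 and KLF12 on chromosome 13. KLF5 is a zinc finger factor of basal epithelial cells and KLF12 is a related repressor. Its core of 409 kb held 149 sg3 members and 104 V2 members, or 365 and 255 per Mb. Their median fold was low, 4.12 in sg3 and 5.26 in V2, against 5.21 and 5.93 over all desert members. The ranking of deserts thus goes by the number of regions and not by their strength. No V2 region overlapped 53 of the sg3 members, which is 35.6% (95% CI 27.9 to 43.8%). A run of 112 sg3 members covered 266 kb at chr13:73211418-73477408, with 39.7% of its bases inside members. The strongest sg3 member, chr13:73285601-73287198, lay 209328 bases from KLF5 with a fold of 11.3 at a -log10 q of 158. The V2 member at the same place, chr13:73285651-73287205, had a fold of 15.5 at a -log10 q of 135. By -log10 q the next sg3 member, chr13:73428941-73429744, lay 256749 bases from KLF12 at 132, and the V2 member there, chr13:73428932-73429692, reached 98.0. The strongest members thus stood at more than 1 place in this desert.

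KLF4 and KLF6 flank the next KLF deserts. KLF4 is a factor of differentiating squamous epithelium, and the core of 1165 kb between it and ACTL7B, an actin-like gene of the testis, held 125 sg3 and 77 V2 members. They formed separate groups with empty sequence between them. The strongest lay inside the lncRNA gene LOC105376208, 265150 bases from KLF4 at chr9:107753881-107755327, with a fold of 19.3 at a -log10 q of 184 in sg3. The V2 member there, chr9:107752929-107755287, had a fold of 16.2 at a -log10 q of 132. KLF6, a widely expressed factor of the same family, has a desert on either side on chromosome 10. The one towards LOC124902565 held 75 sg3 and 54 V2 members on 255 kb, and the one towards AKR1E2, an aldo-keto reductase gene, held 61 and 31 on 840 kb. In sg3 the strongest of these, chr10:3635936-3639602, lay in the lncRNA gene LOC105376360 with a fold of 17.0 at a -log10 q of 130.

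The family was looked at because of these counts, so its numbers are a description. Of 18 KLF genes, 8 flank a desert, 7 of them one with at least 1 sg3 member, and 6 one with 10 or more. KLF5 and KLF12 share a single desert and count once each. Over all genes that flank a stretch, 38.1% had an sg3 member in it and 7.99% had 10 or more. Those with 10 or more were KLF5, KLF12, KLF4, KLF6, KLF3 and KLF14. KLF3 and KLF14 each bordered a desert with 30 sg3 members and 14 V2 members. KLF7 bordered 1 sg3 member and no V2 member, and KLF8 bordered none.

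**Figure D3:**
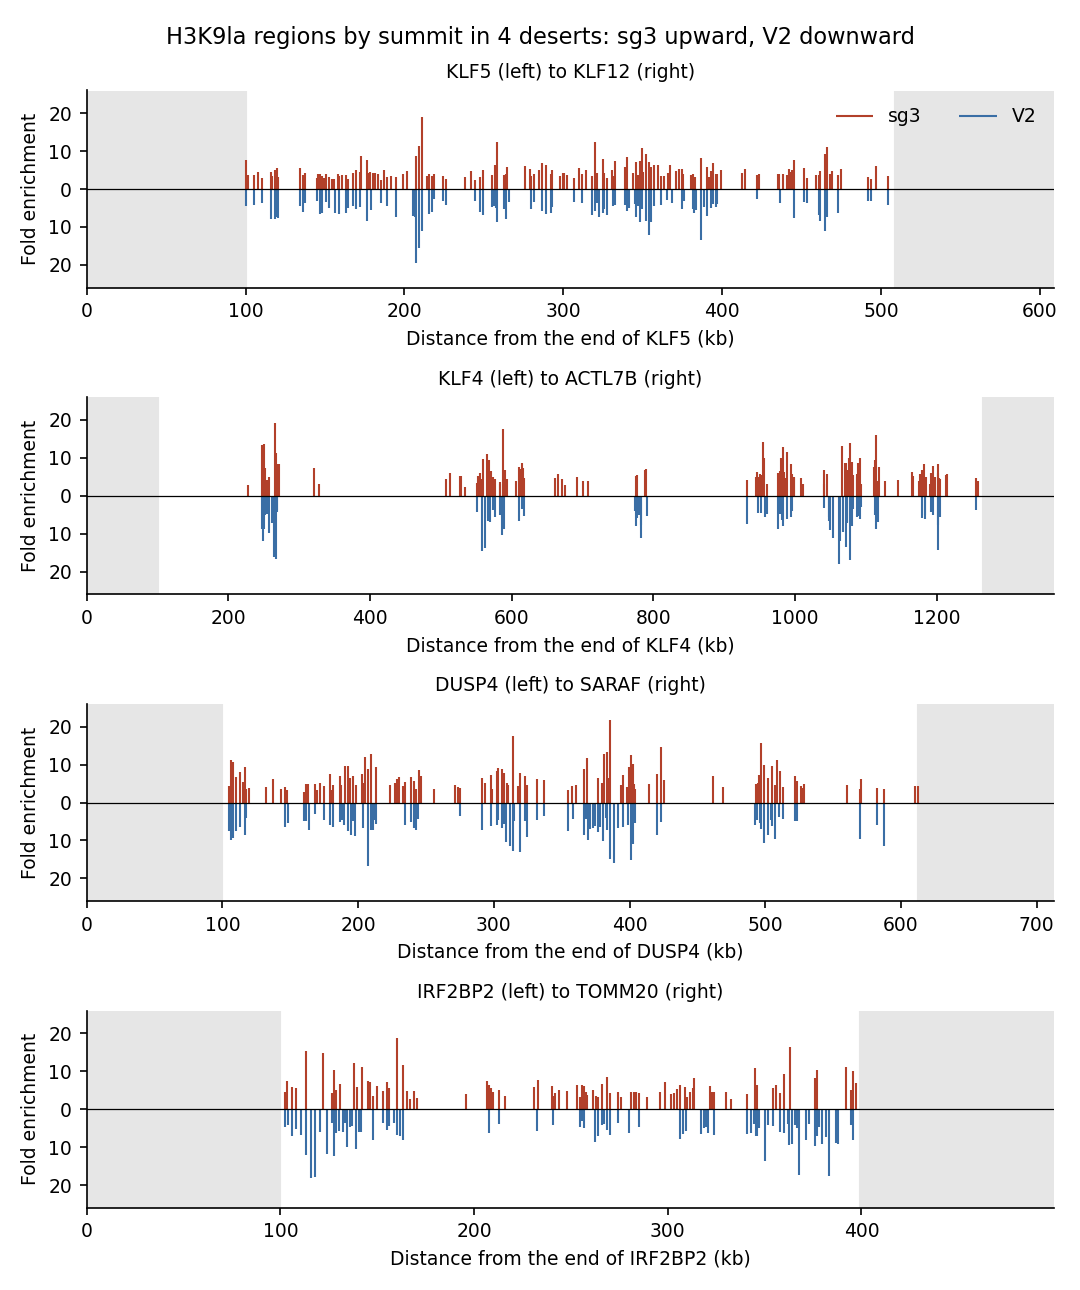
Summits of members in the 4 deserts with most sg3 members, by distance in kb from the nearer end of the left flanking gene; line length is the authors' fold enrichment, with sg3 upward and V2 downward, and grey marks the 100 kb next to each gene where regions are no members. Members fill the KLF5 to KLF12 desert, with 149 in sg3 and 104 in V2, and form separate groups in the KLF4 to ACTL7B desert, with 125 and 77.

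The signalling regulator genes DUSP4 and TRIB1 bordered the deserts of chromosome 8. DUSP4, a nuclear phosphatase of MAP kinases, and SARAF, a regulator of calcium entry, enclose 512 kb with 117 sg3 and 89 V2 members. No V2 region overlapped 31.6% of these sg3 members (95% CI 23.3 to 40.9%). The strongest sg3 member there, chr8:29736121-29737559 inside the lncRNA gene LINC00589, had a fold of 21.7 at a -log10 q of 133. V2 had members at chr8:29737769-29740215 and chr8:29735219-29737476, with fold enrichments of 15.9 and 14.8 and a -log10 q of 90.6 and 82.0.

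On the long arm of chromosome 8 the 4 successive deserts around MYC were all among the 30 with most sg3 members. MYC codes for a growth-promoting transcription factor, POU5F1B is a retrogene copy of a pluripotency factor, and TRIB1 codes for a pseudokinase that guides protein degradation. From left to right, TRIB1 to LRATD2 held 71 sg3 and 36 V2 members, LRATD2 to POU5F1B held 72 and 55, POU5F1B to MYC held 42 and 33, and MYC to GSDMC held 34 and 26. The sides of MYC differed in density, with 355 sg3 and 279 V2 members per Mb on the 118 kb towards POU5F1B and 19.3 and 14.8 per Mb on the 1762 kb towards GSDMC. The strongest sg3 member of LRATD2 to POU5F1B, chr8:127295013-127300000, lay in the lncRNA gene CASC21 with a fold of 12.5 at a -log10 q of 99.2. The V2 member at its left end, chr8:127295022-127296255, had a fold of 15.0 at a -log10 q of 80.2.

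The remaining deserts of the first 10 had other kinds of flanking genes. IRF2BP2, a transcriptional corepressor gene, and TOMM20, a mitochondrial import receptor gene, enclose 299 kb with 90 sg3 and 83 V2 members on chromosome 1. A further 7 sg3 regions and 1 V2 region there were too wide. KRR1, a ribosome biogenesis gene, and PHLDA1, an apoptosis-related gene, enclose 314 kb with 68 sg3 and 41 V2 members on chromosome 12. The V2 member with the highest fold there, chr12:75724079-75724983, reached 24.2 with a -log10 q of 82.5. OPA1, a gene for mitochondrial fusion, and LOC102724877 enclose 172 kb with 63 sg3 and 56 V2 members on chromosome 3. This small desert held the V2 members with the highest and the next highest -log10 q, 186 at chr3:193828744-193830879 inside the lncRNA gene LOC105374284 and 159 at chr3:193872600-193875474.

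**Figure D4:**
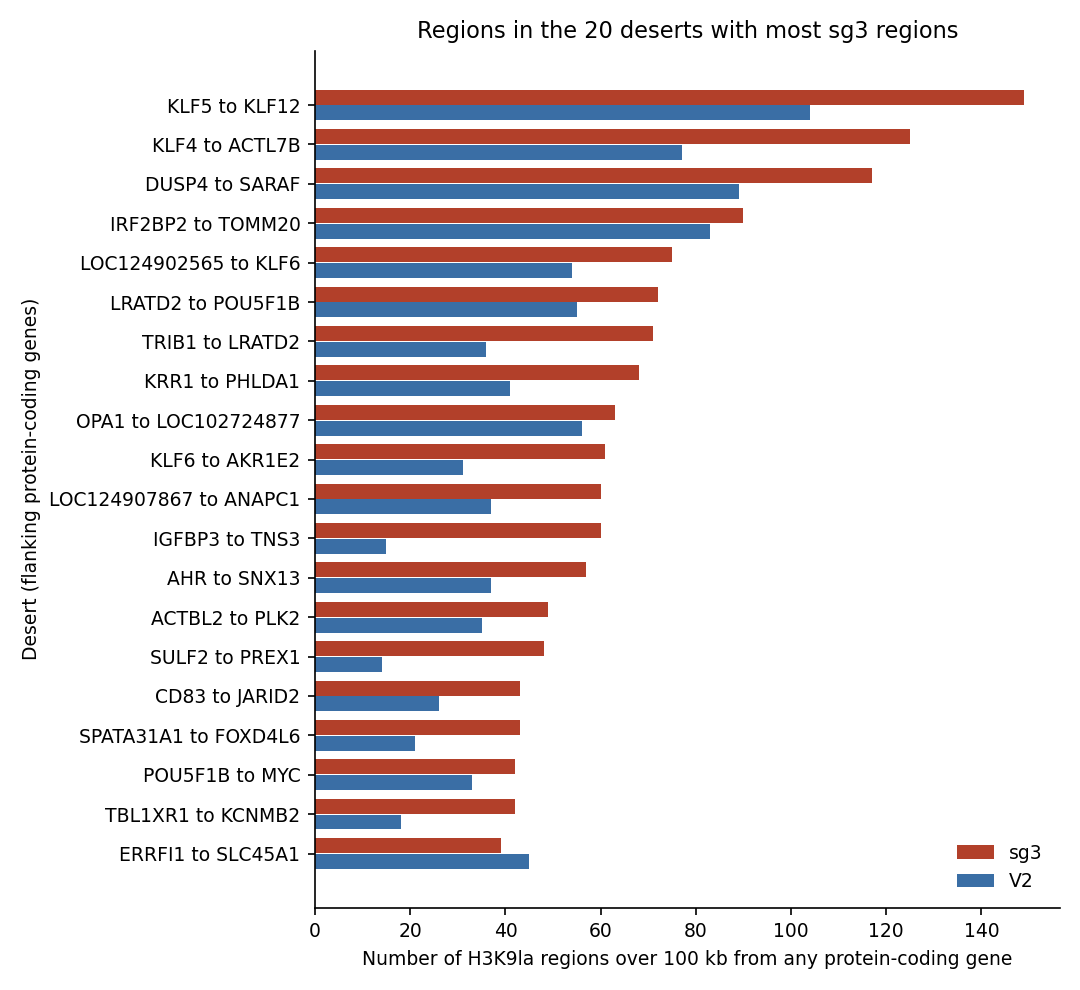
Number of sg3 members and V2 members in each of the 20 deserts with most sg3 members, labelled by the flanking protein-coding genes. KLF5 to KLF12 leads with 149 and 104, IGFBP3 to TNS3 has 60 and 15, and ERRFI1 to SLC45A1 has 39 and 45.

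By density the order changed. Among deserts with at least 10 sg3 members, ERRFI1 to SLC45A1 on chromosome 1 was densest, with 39 sg3 and 45 V2 members on 91.8 kb, or 425 and 490 per Mb. ERRFI1 codes for an inhibitor of the EGF receptor, and SLC45A1 for a sugar transporter. A run of all its 39 sg3 members covered 64.8% of its 82.1 kb with members, and a run of the 45 V2 members covered 60.9% of 84.8 kb. YWHAZ to ZNF706 came next at 412 sg3 and 389 V2 members per Mb, with 18 and 17 members on 43.7 kb. YWHAZ codes for a 14-3-3 adaptor protein. F3 to SLC44A3 had 382 and 242 per Mb, OPA1 to LOC102724877 had 366 and 325, and KLF5 to KLF12 had 365 and 255. F3 codes for tissue factor, which starts blood coagulation.

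Deserts had very different shares of sg3 members without a V2 region. Among the 55 deserts with at least 20 sg3 members, the share without one had a median of 51.4%. It was lowest, 10.3% (95% CI 2.87 to 24.2%), in ERRFI1 to SLC45A1, where 4 of 39 sg3 members had none. HAS2 to ZHX2 on chromosome 8 followed with 19.0%, and TFAP2C to BMP7 on chromosome 20 with 27.0% (95% CI 13.8 to 44.1%). HAS2 makes hyaluronan, TFAP2C is an epithelial AP-2 factor and BMP7 a growth factor. At the other end stood IL12B to ADRA1B on chromosome 5 with 81.5% (95% CI 61.9 to 93.7%), with 27 sg3 and 8 V2 members. IGFBP3 to TNS3 on chromosome 7 had 76.7% (95% CI 64.0 to 86.6%), with 60 and 15 members, and MYEOV to CCND1 on chromosome 11 had 72.7% (95% CI 49.8 to 89.3%), with 22 and 6. SULF2 to PREX1 on chromosome 20 had 70.8% (95% CI 55.9 to 83.0%), with 48 and 14. IGFBP3 binds insulin-like growth factors, TNS3 is a focal adhesion protein, CCND1 is cyclin D1, SULF2 trims heparan sulphate and PREX1 activates Rac.

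The 2 ends of this range did not overlap in their intervals. They were picked as extremes of 55 deserts from 1 library per arm, and regions of 1 desert are not independent, so this is a description of these libraries. IGFBP3 to TNS3 also had sg3 members of high fold, up to 25.1 with a -log10 q of up to 94.1, and in V2 they reached 12.4 and 31.1. PLXNA2 to CAMK1G on chromosome 1, which holds MIR205, had more V2 members than sg3 members, 27 in sg3 and 38 in V2. In that desert 5 sg3 regions and 1 V2 region were too wide to be members. In 3 deserts with at least 10 sg3 members the V2 members outnumbered them, although the rule had left out V2 regions without an sg3 region. Beside PLXNA2 to CAMK1G these were ERRFI1 to SLC45A1, with 39 and 45, and PLS3 to AGTR2 on chromosome X, with 11 and 30. With the left-out V2 regions kept, 3 more would pass their sg3 count. HAS2 to ZHX2 with 21 sg3 and 18 V2 members, SPRED2 to MEIS1 with 22 and 19 and LY86 to RREB1 with 24 and 18 would gain 7, 4 and 9.

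**Figure D5:**
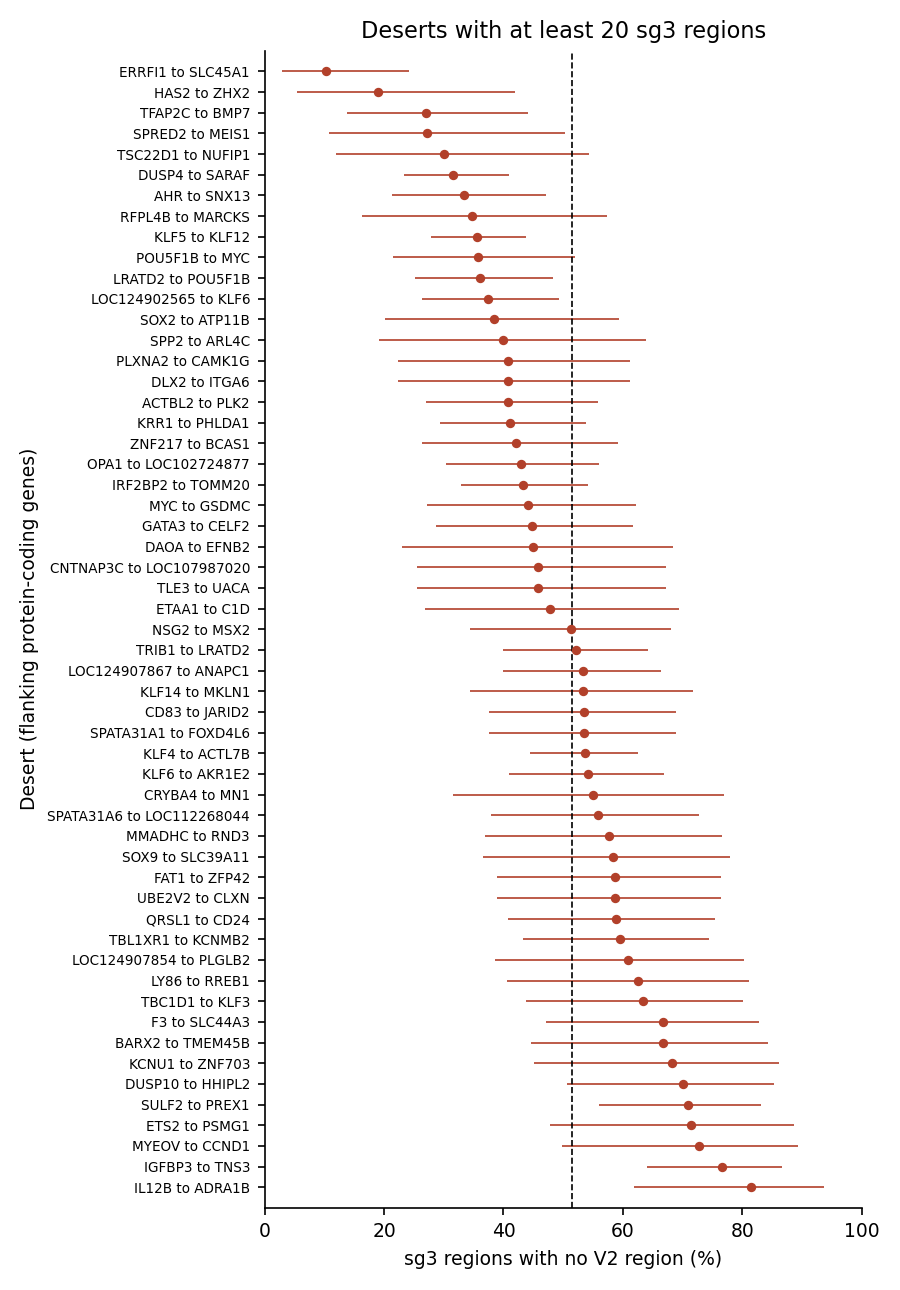
Percent of sg3 members that no V2 region overlaps in each of the 55 deserts with at least 20 sg3 members, with exact 95% intervals for counting error; the dashed line is the share over all desert sg3 members, 51.6%. ERRFI1 to SLC45A1 is lowest at 10.3% and IL12B to ADRA1B highest at 81.5%.

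The strongest sg3 member lay in a stretch known for segmental duplications. The highest -log10 q of an sg3 member was 197, with a fold enrichment of 24.7, at chr2:111641544-111644326 between LOC124907867 and ANAPC1, a subunit gene of the anaphase-promoting complex. The V2 member there had a fold of 22.8 at a -log10 q of 150. LOC124907867 to ANAPC1, with 60 sg3 and 37 V2 members, and SPATA31A1 to FOXD4L6 and SPATA31A6 to LOC112268044 near the centromere of chromosome 9, with 43 and 21 and with 34 and 15, are also in or near such duplications. How multiply aligned reads were treated is not given in the sources used, and its part in these counts was not tested. The remaining sg3 members among the 5 with the highest -log10 q were those of KLF4 to ACTL7B and OPA1 to LOC102724877 given above, 1 in PLXNA2 to CAMK1G and 1 in THNSL2 to FOXI3. The PLXNA2 to CAMK1G member, chr1:209394954-209398754, had a fold of 23.2 at a -log10 q of 162. The THNSL2 to FOXI3 member, chr2:88330501-88332193, had 15.0 and 160. In V2 the first 5 lay in OPA1 to LOC102724877, which had 2 of them, LOC124907867 to ANAPC1, KLF5 to KLF12, and CD83 to JARID2. The last of these, chr6:14744274-14745066, had a fold of 10.5 at a -log10 q of 132 and lay 501460 bases from JARID2, a Polycomb cofactor gene.

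The members farthest from any protein-coding gene lay near the start of chromosome 22. The sg3 member farthest away, chr22:10747284-10747897, was 4780661 bases from OR11H1, an odorant receptor gene, with a fold enrichment of 3.13. A V2 member overlapped it with a fold enrichment of 6.20. The next sg3 members were 4262471 and 3824370 bases away with fold enrichments of 5.54 and 5.33 and no V2 region. The next V2 members were 3821639 and 3558649 bases away with fold enrichments of 5.17 and 14.1. The part of assembly gaps in these distances, and of multiply aligned reads in these members, was not tested.

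Many members lay at or inside lncRNA genes. Of sg3 members 35.6% lay inside a lncRNA gene and 50.5% (95% CI 49.0 to 52.0%) lay inside or within 5 kb of a non-coding gene or pseudogene of any kind. In V2 these were 35.5% and 49.7% (95% CI 47.7 to 51.7%). Regions 1 to 100 kb outside protein-coding genes had lower shares, at 22.9% and 44.3% in sg3 and 21.8% and 43.4% in V2. For other kinds the order was the opposite. Within 5 kb of a pseudogene lay 6.54% of sg3 members and 5.68% of V2 members, against 11.1% of sg3 and 10.7% of V2 regions 1 to 100 kb outside genes. For miRNA genes the shares were 0.517% in sg3 and 0.360% in V2 members, against 1.04% and 1.10%, and for other RNA genes 0.382% and 0.2002%, against 1.86% and 1.63%. Genes for lncRNAs cover 20.8% of the desert bases. Measured from all genes of the table, non-coding ones and pseudogenes included, 129 sg3 and 75 V2 members remained more than 100 kb away.

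Most windows at starts of non-coding genes carried no member. RefSeq promoter windows place 2911 non-coding starts in the deserts, with no window from chromosome 8 among them. Members of both lists overlapped 36 of them (1.24%, 95% CI 0.868 to 1.71%), sg3 members alone 76 (2.61%) and V2 members alone 4 (0.137%), where the condition on V2 members lowers the last count. For scale, sg3 members covered 3.63 Mb and V2 members 1.87 Mb of the 956 Mb of desert sequence. A window counted when any part of it was overlapped, so its share is not a share of bases. Overlapped windows were richer in G and C. Median GC content was 54.3% with 8 CpG where both lists had a member, 51.5% with 6 CpG for sg3 alone, 48.0% with 3 CpG for V2 alone, and 42.3% with 2 CpG where neither had one. LOC105374286, LINC01132, LOC107985364, LINC02971 and LINC02038 had the windows overlapped in both lists within the 10 deserts with most members. At LINC02971, between IRF2BP2 and TOMM20, the summits stood 790 bases from the start in sg3 and 86 bases in V2. At LOC107985364 they stood 594 bases and 134 bases away.

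Counting both ends of a gene, and chromosome 8 as well, more non-coding genes in the 10 deserts with most members had a summit beside them. Within 1 kb of an end, 57 such genes had a member's summit, of which 51 were lncRNA genes and 6 pseudogenes. The number of all non-coding genes in these deserts is not given here, so these counts are no shares. The deserts were chosen for their many members, and the part of that density in the counts was not tested. Summits of both lists stood within 1 kb of an end at 33 of the 57 genes, of sg3 alone at 20 and of V2 alone at 4. This imbalance is set in part by the rule, since every V2 member had to overlap an sg3 region and sg3 members needed no V2 region. IRF2BP2 to TOMM20 and DUSP4 to SARAF supplied many of them. LINC01132 had 2 sg3 summits of fold up to 15.4 and 2 V2 summits of fold up to 12.1 by its ends, and LOC105373210 had 1 sg3 summit of fold 12.1 and 3 V2 summits of fold up to 10.5. In OPA1 to LOC102724877, LINC02038 and LOC105374287 each had 3 sg3 and 3 V2 summits. CCAT1, a lncRNA gene known from colon cancer that lies between LRATD2 and POU5F1B, had 2 sg3 summits of fold up to 8.79, and the nearest V2 member's summit was 1758 bases away. CASC8 in the same desert had 1 sg3 summit of fold 5.52, with the nearest V2 summit at 1314 bases. MANCR, between KLF6 and AKR1E2, had 1 sg3 summit of fold 5.64 by its ends. The nearest V2 member's summit was 2614 bases from an end. Inside MANCR, more than 1 kb from its ends, lay the strongest members of this desert by -log10 q. Their fold was 13.6 at a -log10 q of 75.9 in sg3 and 15.1 at 57.6 in V2. LINC03108, LINC02948, LOC107984192 and LINC00705 were the genes with V2 summits alone, with fold enrichments up to 9.18, 7.27, 9.79 and 8.58.

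Short motifs were counted in the same windows on both strands. TGANTCA, the letters bound by AP-1 factors, was in 17.0% of 112 windows overlapped by an sg3 member, in 13.1% of 2799 other desert windows and in 7.68% of all 34961 promoter windows in the table. CCACCC, a form of the CACCC box bound by KLF factors, was in 40.2%, 18.1% and 34.3%. GGGCGG, the GC box, was in 27.7%, 8.22% and 45.03%. None of the 3 motifs contains another. GC content also differed between these sets, as given above, and its part in the motif shares was not tested. The LINC01132 window printed above holds 1 TGANTCA match, which reads TGATTCA, and the LOC105374286 and MIR550A3HG windows hold none.

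The starts of genes beside filled deserts more often carried a region themselves. Over all protein-coding genes with a start in the promoter table, 48.9% had an sg3 region and 29.6% a V2 region within 1 kb of a start. Of 224 genes that flank deserts with 10 or more sg3 members, 172 have a start in this table. DUSP4, TRIB1, LRATD2, POU5F1B, MYC, TFAP2C and BMP7 are among those without one. For the 172 genes the shares were 61.0% in sg3 (95% CI 53.3 to 68.4%) and 41.9% in V2 (95% CI 34.4 to 49.6%). For 699 genes beside 1 to 9 sg3 members they were 46.8% and 29.8%, and for 1366 genes beside none they were 33.5% in sg3 and 20.4% in V2. A gene with a stretch on either side can stand in more than 1 of these groups. Starts at KLF5, KLF12, KLF4, KLF6, IRF2BP2, PHLDA1 and OPA1 carried a region in both lists. At KLF6 the fold enrichment was 8.68 in sg3 and 6.17 in V2. Starts at TOMM20, KRR1 and LOC124902565 carried one in sg3 alone, with fold enrichments of 5.67, 5.28 and 3.74. Starts at ACTL7B and AKR1E2 carried none in either list. Among flanks of the 30 deserts with most members that have a start in the table, ERRFI1 had the strongest by -log10 q. Its fold was 9.41 at a -log10 q of 91.9 in sg3, and in V2 these were 6.19 and 52.3.

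Gene lists of different roles had different deserts. Where a gene flanks a stretch on either side, the count given in each list is that of the fuller stretch. The shares over all 2805 flanking genes were 38.1% with an sg3 member and 7.99% with 10 or more, as above. A V2 member was beside 746 of these 2805 genes. Of 54 genes on a list for growth control and squamous carcinoma, 32 flank a stretch, and of these 22 (68.8%) had an sg3 member and 18 had a V2 member, and 11 had 10 or more in sg3. These were DUSP4, TRIB1, MYC, BMP7, DUSP10, ITGA6, CCND1, SPRY1, SPRY2, TRIB2 and INHBA. DUSP10, another MAP kinase phosphatase gene, bordered 30 sg3 and 20 V2 members, and 6 and 1 on its other side, towards HLX. ITGA6, the hemidesmosome integrin subunit, bordered 27 sg3 and 20 V2 members. SPRY2, an antagonist of growth factor signalling, bordered 13 and 1, and 1 and 1 on its other side, towards SLITRK1. EGFR bordered 3 sg3 members and no V2 member, and genes with none included IL6, FGF10, PTHLH and CDKN2B.

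Of 87 genes on a list of developmental transcription factors, 73 flank a stretch, and of these 37 (50.7%) had an sg3 member, 30 had a V2 member and 16 had 10 or more in sg3. Beside the KLF genes these were led, by the fuller stretch of each, by GATA3 with 38 sg3 and 21 V2 members and TFAP2C with 37 and 33. MSX2 followed with 37 and 19, SOX2 with 26 and 17 and SOX9 with 24 and 17. SOX9 also bordered 12 and 6 towards KCNJ2. MEIS1 bordered 22 and 19 towards SPRED2 and 10 and 6 towards ETAA1. Among the 16, the pairs KLF5 and KLF12, PAX1 and FOXA2, and IRX3 and IRX5 each share a single stretch. SOX2 is a factor of basal squamous cells and GATA3 one of several epithelia. TP63, the master factor of squamous epithelium, bordered 7 sg3 and 2 V2 members. FOXC1, SOX4, PAX6 and TBX3 were among the factors with none. Of 61 genes on a list of adhesion and synapse genes, 58 flank a stretch, and of these 27 (46.6%) had an sg3 member and 18 a V2 member. Only GPC5, SLITRK5 and LRP1B had 10 or more, each with 11 sg3 and 6 V2 members. GPC5 and SLITRK5 share a single stretch and count once each. Those with none included CNTNAP2, ROBO2, PCDH7 and CDH6. The lists were drawn up with earlier results of these data known, so the counts describe the deserts and support no choice of list.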

How the data were processed

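H3K9la ChIP-seq of KYSE30 cells gave 2 deposited peak lists, 1 per arm, from a series of 4 samples; no columns of other samples were present. Per the submitters' processing notes, the tools were MACS2 2.2.9.1, SAMtools 1.18, Bowtie2 2.5.1, Trim Galore 0.6.10 and FastQC 0.12.1, and the build was hg38. The sources used here give neither the calling options nor the control or depth of a list. The V2 list is attached to the V2 input sample and was taken as that arm's list. The lists, in the narrowPeak layout, hold the authors' fold enrichment, a ratio, and their -log10 p and -log10 q for each region. The deposited integer score was not used, and no records of a list overlapped each other.

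From these files regions were placed by their summit, and the distance to the nearest of 19821 protein-coding genes of the RefSeq table of GRCh38.p14 was measured on chromosomes 1 to 22 and X. Of its entries, 153 protein-coding genes carry coordinates of unplaced or alternate scaffolds under a chromosome name and were left out. An overlap of 1 base made regions of the lists shared. A start was marked by a region within 1 kb. Shares have exact Clopper-Pearson 95% intervals and medians have distribution-free ones, which cover counting error only. Python 3.11.15, pandas 2.3.3 and SciPy 1.17.1 were used, and the placement was tested on simulated data.

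The text names the 10 deserts with most sg3 members, the 5 densest with at least 10, the 5 members of each list with the highest -log10 q, the 3 strongest sg3 members without V2, the 3 farthest members, the records at the limits, gene list members beside the 30 fullest deserts, and some of the non-coding genes with an end within 1 kb of a summit in the 10 deserts. These non-coding genes and others were picked after their values were seen, among them the KLF genes, MIR205, MIR587 and MIR550A3HG, and the deserts at the ends of the range of shares. The members and the 3 gene lists were chosen with earlier results of these data known. Alternatives changed the distance, the thresholds, the overlap, the placing of a region and the gene table.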

Additional observations from a re-analysis of the deposited data

How the results depend on the processing

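Counts of members followed the rule, and the share of sg3 members without a V2 region depended on list length and on how near a V2 region had to be. With a limit of 50 kb there were 8060 sg3 and 4713 V2 members in 1018 deserts with an sg3 member, and with 200 kb there were 1815 and 960 in 281 deserts, with a share without V2 of 53.6%. At a -log10 q of at least 10 there were 2538 sg3 and 1423 V2 members. Distance from all genes of the table left 129 sg3 and 75 V2 members. With lists of equal length there were 2946 sg3 members and the share was 38.3%. It was 36.8% when a V2 region within 1 kb counted, 53.9% at a fold enrichment of at least 4 and 53.9% without the 10 deserts with most members, an alternative chosen after seeing the data, as was keeping genes with scaffold coordinates, which gave 4441 sg3 and 2494 V2 members. For these alternatives the share over all sg3 regions was not computed. Ranked by members per Mb the first desert was ERRFI1 to SLC45A1, with 39 sg3 members, and ranked by V2 members it was KLF5 to KLF12. Of the other counts and shares above, 27 values stayed within 1.5 times the count or within the interval of the share. Of the medians of fold and width, the share beside non-coding genes and the first desert, 23 values stayed and 19 moved, most of them where thresholds or list length removed weak regions. No paired analysis was possible because each arm has 1 library and no test was made. Read depth, not given here, limits which weak regions either list could hold.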
